A study of Mus musculus with 9 samples.

Results

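Junb, Fosb, Dusp2, Cd69 and Myc are 5 genes that T cells switch on soon after their antigen receptor is engaged. They were taken by name as 5 of the 2124 genes listed in both expression matrices of the series, and all 5 were read in every tumour. Receptor signalling reaches them through calcium and MAP kinase cascades. JunB and FosB are subunits of AP-1, a family of paired transcription factors that opens the first wave of transcription. Dusp2 encodes a nuclear phosphatase that turns MAP kinases off again. CD69 is a surface protein that appears early after stimulation and also holds T cells in tissue. Myc drives the growth and metabolism that precede division. In tumours, lasting exposure to antigen keeps parts of this response on while some cells pass into an exhausted state. They are set beside Ifng, which encodes the cytokine interferon gamma, and Tnfrsf9, which encodes the costimulatory receptor 4-1BB, both products of recently stimulated CD8+ cells.

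In the GRCm38.p6 assembly as listed by RefSeq, Junb lies at chr8:84976909-84978748, Fosb at chr7:19302696-19310118 and Dusp2 at chr2:127336159-127338377. Cd69 lies at chr6:129267324-129275375 and Myc at chr15:61985341-61990361. All 5 are protein-coding genes.

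The cells were CD8+ T cells sorted from B16F10 tumours, a transplantable mouse melanoma line, taken on day 14 from female C57BL/6 mice aged 8 weeks. The labels of all samples give a digestion of 45 minutes at 37 °C and an intravenous label of 3 minutes. The part of the digestion in the reads of the 5 genes was not tested. Each treatment had 1 mouse: 200 µg of antibody against CD4, which depletes CD4+ T cells, on days 5 and 9; the same dose of antibody against PD-L1, a ligand of the inhibitory receptor PD-1; or no antibody. The anti-CD4 mouse was run in 1 capture cartridge under sample tags 5 and 6. The other 2 mice shared the other cartridge under tags 1 and 2, and no label says which of these tags is the untreated mouse. Spleen T cells from Pmel-1 mice, transgenic for a receptor that recognises a melanoma antigen, were added to the anti-CD4 cartridge under tags 7, 8 and 9. A difference between the cartridges could come from the treatment, the animal or the run, which cannot be told apart, and no test was made between tumours.

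Cells with a receptor beta chain numbered 6412 for tag 1, 11310 for tag 2 and 12304 for the anti-CD4 mouse, in 1912, 7398 and 1474 clones. The spike-in tags held 860, of which 788 carried the Pmel-1 beta chain. Median depth was 17630 reads per cell for tag 1, 13932 for tag 2, 21194 for the anti-CD4 mouse and 11116 for the Pmel-1 clone. To compare shares of cells, each cell was thinned to 4000 reads, and a cell has a gene when at least 1 thinned read names it. Levels are given as RPM, the reads of a gene per 1000000 reads of the thinned cells. Cd8b1 was read in 86.1 to 97.2% of cells and Cd4 in at most 0.219%. Ighm, an immunoglobulin heavy chain gene, was read in 16.9 to 27.8% of the tumours' cells and in 48.7% of the Pmel-1 clone, and Cd79b, which encodes a signalling chain of the B cell receptor, in at most 2.30% and in 6.60%. Igkc, an immunoglobulin light chain gene, was read in 19.9% of tag 1 cells against 3.85% and 4.99% in the other tumours, and each of the 6 macrophage markers in both matrices in at most 3.54% of any tumour's cells. The part of these reads in the shares and correlations was not tested. The comparisons of summed reads were also run without cells holding a read of any of 11 B cell and macrophage markers, as given below. No captured cell type is known to lack the 5 genes, so no background share was measured. Reads made by PCR are not separate molecules, so the 95% Wilson intervals on shares cover counting error only. The reads come from a primer panel, and levels are therefore compared across cells and not between genes.

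Sequence upstream of the start is given for the members that RefSeq's promoter table holds, since AP-1 and Myc are themselves transcription factors. Junb is shown for chr8:84978749-84978998 and Fosb for the 30 bases chr7:19310089-19310118, both on the minus strand; the table's Fosb window lies inside the listed gene, so only the stretch around the match is shown. Dusp2 is shown for chr2:127335909-127336158 on the plus strand. All are written 5′ to 3′, and capitals mark TGACG, the core of a cyclic AMP response element, in Junb and Fosb and CACGTG, an E-box of the kind Myc binds, in Dusp2.
Junb: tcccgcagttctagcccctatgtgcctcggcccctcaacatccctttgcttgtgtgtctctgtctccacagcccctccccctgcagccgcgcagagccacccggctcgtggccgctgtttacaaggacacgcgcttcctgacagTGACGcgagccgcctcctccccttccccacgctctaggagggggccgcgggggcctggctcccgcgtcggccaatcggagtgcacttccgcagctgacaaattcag
Fosb: atggagttgcgggTGACGcaagcgcggggg
Dusp2: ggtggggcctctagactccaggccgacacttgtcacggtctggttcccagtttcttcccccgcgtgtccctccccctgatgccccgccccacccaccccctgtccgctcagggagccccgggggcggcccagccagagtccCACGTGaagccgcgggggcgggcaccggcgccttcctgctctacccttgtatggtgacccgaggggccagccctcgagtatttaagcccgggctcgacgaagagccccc
The marked letters begin 106 bases before the start in Junb, 60 in Fosb and 109 in Dusp2, counted to the start that the table uses. Searched on both strands of the 250 bases before the start, TGACG occurred in 17.8% of 32851 mouse promoters and CACGTG in 6.02%. TGANTCA, which covers the AP-1 site, the full element TGACGTCA and the CArG box (CCWWWWWWGG, W for A or T) were also searched. They occurred in 6.75%, 1.55% and 1.47% of promoters and in none of the windows of Junb, Fosb and Dusp2. The marked matches describe letters and say nothing of binding. Cd69 and Myc have no entry in that table.

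In percentage points of cells, the tumours differed more in Junb than in the other 4 genes. In proportion, the shares of Myc and the levels of Myc and Cd69, given below, differed more. After thinning, 52.9% of tag 1 cells had a Junb read (interval 51.7 to 54.1), against 83.9% for tag 2, 89.0% for the anti-CD4 mouse and 80.2% of the Pmel-1 clone. Mean Junb levels were 4565 RPM in tag 1, 14154 in tag 2, 8799 in the anti-CD4 tumour and 8887 in the Pmel-1 clone. Tags 1 and 2 were captured together, so this gap lay within a cartridge. Without scaling, Junb gave 89.9 reads per cell in tag 1 against 215.5 and 195 in the other tumours. Dusp1, another MAP kinase phosphatase, was also least frequent in tag 1, at 26.5% of cells against 49.8% and 71.1%.

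Fosb, the other AP-1 subunit gene, had a read in 43.9%, 49.2% and 47.4% of cells of tag 1, tag 2 and the anti-CD4 mouse. Its mean level was lower in the anti-CD4 tumour, at 2334 RPM against 3834 and 5197. Cells with Fosb were thus about as frequent there, and the reads in them were fewer.

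Dusp2 was read in 93.5%, 90.5% and 96.8% of tumour cells and in 85.0% of the Pmel-1 clone. Its levels of 13836, 13931 and 10098 RPM in the tumours all lay above the 5553 of the spleen clone. Among the tumours the order of levels was not that of the shares, since the anti-CD4 mouse had the highest share and the lowest level.

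Cd69 was read in 52.8% and 53.5% of tag 1 and tag 2 cells and in 41.0% of the anti-CD4 mouse's cells. The levels were 2390, 2656 and 723 RPM, and 576 in the Pmel-1 clone. The anti-CD4 tumour and the spleen cells of the same cartridge were both low, and both tumours of the other cartridge were high.

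Myc was rarer in the tumours taken whole than in the spike-in. It was read in 6.9% of tag 1 cells, 14.3% of tag 2 cells and 6.7% of the anti-CD4 mouse's cells, against 35.5% of the Pmel-1 clone. The share was 37.4%, 29.2% and 27.5% in the clone's 618, 130 and 40 cells of tags 7, 8 and 9. This clone, which also had the highest Ighm share, thus lay above every whole tumour under every spike-in tag. Myc levels were 223, 655 and 157 RPM in the tumours and 1164 in the clone. Some tumour cells came close to the clone. In Tcf7+ Pdcd1- cells whose clone was seen once, classes set out below, Myc was read in 12.5%, 18.9% and 25.7% of cells. Levels there were 535, 958 and 1122 RPM in tag 1, tag 2 and the anti-CD4 tumour.

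Ifng was read in 19.8%, 18.5% and 56.0% of cells of tag 1, tag 2 and the anti-CD4 mouse, and Tnfrsf9 in 24.6%, 29.3% and 43.7%. By share over all cells, the anti-CD4 tumour was thus highest in both effector products and lowest in Cd69. Among cells whose clone was seen once, its Cd69 share was instead the highest, at 66.9% against 57.0% in tag 1 and 56.6% in tag 2. Its Cd69 level in those cells was still the lowest, at 2173 RPM against 3478 and 3418. Over all cells, the Myc share of the anti-CD4 tumour, with an interval of 6.28 to 7.16, overlapped that of tag 1 (6.28 to 7.52). By level Tnfrsf9 was highest in tag 2, at 2446 RPM against 1568 in tag 1 and 1920 in the anti-CD4 tumour. Its tags 5 and 6, which carry cells of the same mouse, differed little, with Junb in 88.2% and 89.8% of cells, Cd69 in 41.9% and 40.1% and Myc in 6.9% and 6.5%.

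**Figure D1:**
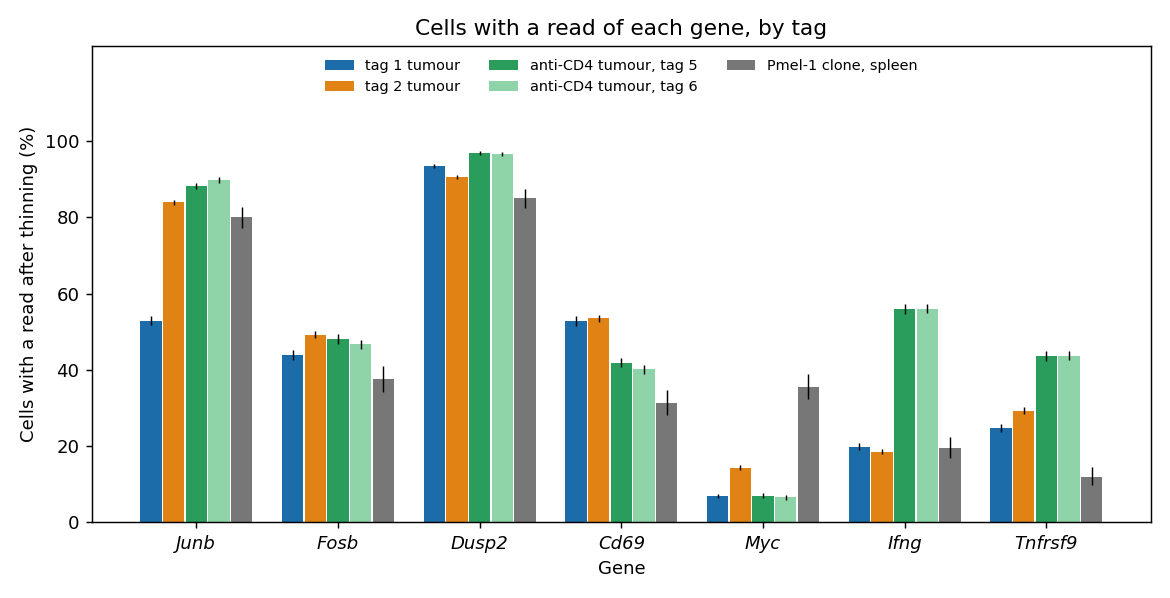
Share of cells with at least 1 read of each gene after thinning to 4000 reads (y axis, percent) for the tag 1, tag 2 and anti-CD4 tumours, the last drawn as its tags 5 and 6, and for the Pmel-1 clone of the spleen spike-in. Error bars are 95% Wilson intervals, which cover counting error only. Junb is lowest in tag 1, at 52.9%, and Myc is highest in the Pmel-1 clone, at 35.5%.

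Cell states were set by reads of Tcf7, a factor of naive and stem-like cells, Pdcd1, which encodes PD-1, and Havcr2, which encodes TIM-3. The 3 gates described are Tcf7+ Pdcd1- cells without Havcr2, Tcf7+ Pdcd1+ cells without Havcr2, and Havcr2+ Pdcd1+ cells without Tcf7. They held 2877, 827 and 249 cells of tag 1, 6190, 1597 and 929 of tag 2, and 896, 957 and 5264 of the anti-CD4 mouse. The gates are ranges: between 3.82% and 24.1% of the cells positive for a gating gene had only 1 or 2 of its reads.

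Of these gates, all 5 genes were highest as RPM of thinned cells in Tcf7+ Pdcd1- cells and lowest in Havcr2+ Pdcd1+ cells of every tumour, while Ifng and Tnfrsf9 ran the other way. Cd69 levels in the order of the gates were 3053, 1975 and 967 RPM in tag 1. They were 3368, 1810 and 831 in tag 2, and 2273, 1107 and 447 in the anti-CD4 tumour. For Cd69 the 3 tumours of 1 gate did not overlap with those of the next.

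Myc levels in the same order were 301, 245 and 26 RPM in tag 1, 900, 293 and 80 in tag 2, and 831, 166 and 77 in the anti-CD4 tumour. The gates did not overlap, although Tcf7+ Pdcd1- cells of tag 1 lay close to the Tcf7+ Pdcd1+ cells of the other tumours. By share, Myc was read in 20.2% of Tcf7+ Pdcd1- cells of the anti-CD4 mouse and in 5.5% of its Havcr2+ Pdcd1+ cells. The Tcf7+ Pdcd1- gate held 896 of the 12304 cells of that tumour.

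Junb levels were 5216, 5112 and 3553 RPM in tag 1, 17199, 9532 and 5858 in tag 2, and 15507, 11576 and 7542 in the anti-CD4 tumour. Tag 1 had the lowest Junb level of the tumours in each gate, as it did in Mki67+ and Mki67- cells. The order of the gates in thinned cells was the same in each tumour, but the gates overlapped widely between tumours.

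Fosb levels were 4381, 3951 and 2037 RPM in tag 1, 5898, 4058 and 2877 in tag 2, and 3083, 2892 and 2093 in the anti-CD4 tumour. Dusp2 levels were 15279, 11676 and 8393 in tag 1, 16285, 10822 and 6428 in tag 2, and 11528, 10162 and 9351 in the anti-CD4 tumour. The step of both genes across the gates was smallest in the anti-CD4 tumour, a difference between mice that was not tested.

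**Figure D2:**
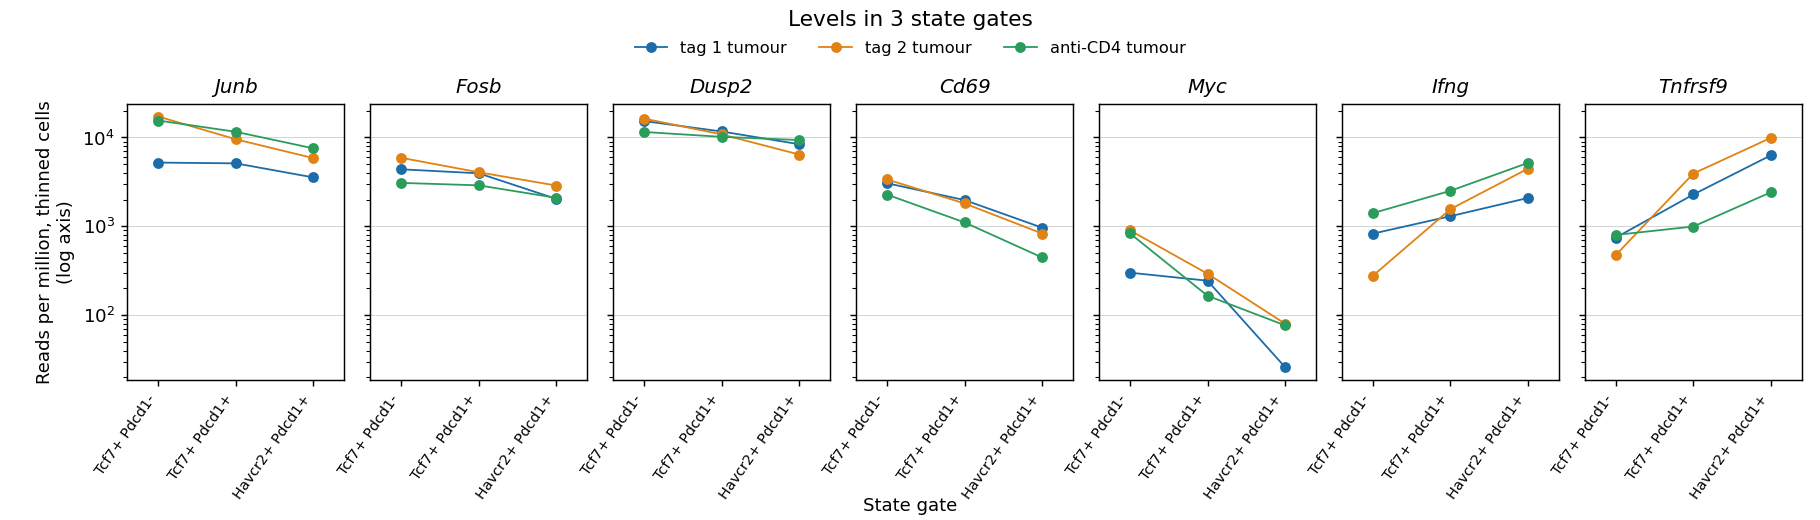
Mean level of each gene (y axis, RPM in thinned cells, log axis) in 3 state gates (x axis) for the 3 tumours. There is 1 mouse per line and no error bar. The 5 genes lie lower toward the Havcr2+ Pdcd1+ gate, and Ifng and Tnfrsf9 lie higher.

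The gates were tested within mice. Raw reads were summed per mouse and gate and are given as CPM, counts per 1000000 summed reads after scaling. Deep cells weigh more in these sums than in thinned cells, and the order of classes within a mouse can differ between CPM and RPM. The 6 sums of a comparison were fitted with edgeR's quasi-likelihood model, blocked on the mouse, with 2 residual degrees of freedom. The p-values measure the spread between these 3 mice, which also differ in treatment. Each ± is the SD of the log2 differences of the 3 mice.

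In Havcr2+ Pdcd1+ against Tcf7+ Pdcd1+ cells, 57 of 875 genes passed (6.51%), 26 of them higher (2.97%) and 31 lower (3.54%), and 1 of the 5 members passed. Cd69 fell: its summed level was 780 against 1543 CPM in tag 1, 701 against 1286 in tag 2 and 548 against 1121 in the anti-CD4 tumour. The log2 difference was -0.96 ± 0.08 (SD, n = 3 mice; edgeR adjusted p = 0.0336), lower in 3 of 3 mice. The call was lost when any mouse was left out (adjusted p between 0.0982 and 0.122) and without the mouse block (adjusted p = 0.211).

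Junb differed by -0.41 ± 0.11 and was lower in 3 of 3 mice, with an edgeR adjusted p of 0.0639. Fosb differed by -0.51 ± 0.37 (adjusted p = 0.192) and Dusp2 by -0.28 ± 0.31 (adjusted p = 0.397), being slightly higher in the anti-CD4 mouse at 11499 against 10909 CPM. Myc had the largest mean difference and the widest spread, -1.49 ± 1.14 (adjusted p = 0.222), being -2.81 in tag 1, where 10 of 249 Havcr2+ Pdcd1+ cells had a read, and -0.92 and -0.76 in the others. None of these 4 passed. Ifng and Tnfrsf9 rose by 1.19 ± 0.33 and 1.25 ± 0.08 (adjusted p = 0.0364 and 0.0088 in edgeR). The Ifng call was lost when any mouse was left out (adjusted p between 0.0669 and 0.114) and the Tnfrsf9 call when tag 2 was (adjusted p = 0.0639), and both were lost without the mouse block (0.556 and 0.423). Without tag 2, no gene passed in this comparison.

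Between Tcf7+ Pdcd1+ and Tcf7+ Pdcd1- cells, 1 of 913 genes passed edgeR's test (0.11%), the gating gene Pdcd1, and none of the members did; 137 genes had an unadjusted p under 0.05, and DESeq2 called 78 genes. Cd69 differed by -1.08 ± 0.34, lower in 3 of 3 mice, with an edgeR adjusted p of 0.100 and a DESeq2 adjusted p of 0.0040. Myc differed by -1.52 ± 1.39, being -2.45 and -2.09 in tag 2 and the anti-CD4 mouse and 0.11 in tag 1. Junb differed by -0.45 ± 0.67, being -1.13 and -0.42 in tag 2 and the anti-CD4 mouse and 0.20 in tag 1, where its summed level was 4947 against 4308 CPM. Junb, Fosb (-0.37) and Dusp2 (-0.61) had edgeR adjusted p-values from 0.253 to 0.598.

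Clone size was the number of cells sharing a beta chain in their tumour. Cells whose clone was seen once numbered 1586, 7049 and 1097 in tag 1, tag 2 and the anti-CD4 mouse, and cells of clones of at least 10 cells 3940, 3405 and 10233. All 5 genes were lower as RPM of thinned cells in the large clones of each tumour. By share of cells, Junb, Cd69 and Myc were also lower there in each tumour. Dusp2 was read in more cells of large than of single-cell clones, 93.5% against 92.6%, 91.8% against 89.4% and 97.4% against 92.4%. Fosb was too in tag 2 (56.0% against 46.3%), but not in tag 1 (40.1% against 52.5%) or the anti-CD4 mouse (47.0% against 49.3%). Myc levels were 478 in single-cell clones against 147 in large clones of tag 1, 945 against 121 in tag 2, and 803 against 85 in the anti-CD4 tumour. Each large-clone value lay below every single-cell-clone value.

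Cd69 showed the same order, 3478 against 2121 RPM in tag 1, 3418 against 1182 in tag 2 and 2173 against 550 in the anti-CD4 tumour. Junb levels were 8194 against 3171, 18020 against 7324 and 15079 against 7886 in the same tumours. Fosb levels were 6533 against 2845, 6072 against 3665 and 3152 against 2242. For Cd69 and Junb no large-clone value reached a single-cell-clone value, whereas the Fosb values of different tumours overlapped.

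Dusp2 differed least with clone size in the anti-CD4 tumour, with 10396 RPM in single-cell clones and 10115 in large ones. It was 16054 against 13097 in tag 1 and 16241 against 8793 in tag 2. In that tumour the phosphatase level was thus nearly the same in both classes, while the other 4 genes were lower in large clones.

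In the same test, edgeR called 0 of 1372 genes between large and single-cell clones (0%), with 225 at an unadjusted p under 0.05, and DESeq2 called 107 genes. The log2 differences were -2.25 ± 1.07 for Myc (edgeR adjusted p = 0.137), -1.24 ± 0.74 for Cd69 (0.199), -0.83 ± 0.32 for Junb (0.180), -0.60 ± 0.32 for Fosb (0.299) and -0.27 ± 0.70 for Dusp2 (0.752). The first 4 were lower in 3 of 3 mice and Dusp2 in 2 of 3; Dusp2 of the anti-CD4 mouse, slightly lower in thinned cells, had a log2 difference of 0.27 as CPM. DESeq2 gave Myc an adjusted p of 0.00663. Leaving out tag 1 gave edgeR 114 calls, among them Myc (adjusted p = 0.000284) and Cd69 (adjusted p = 0.017).

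**Figure D3:**
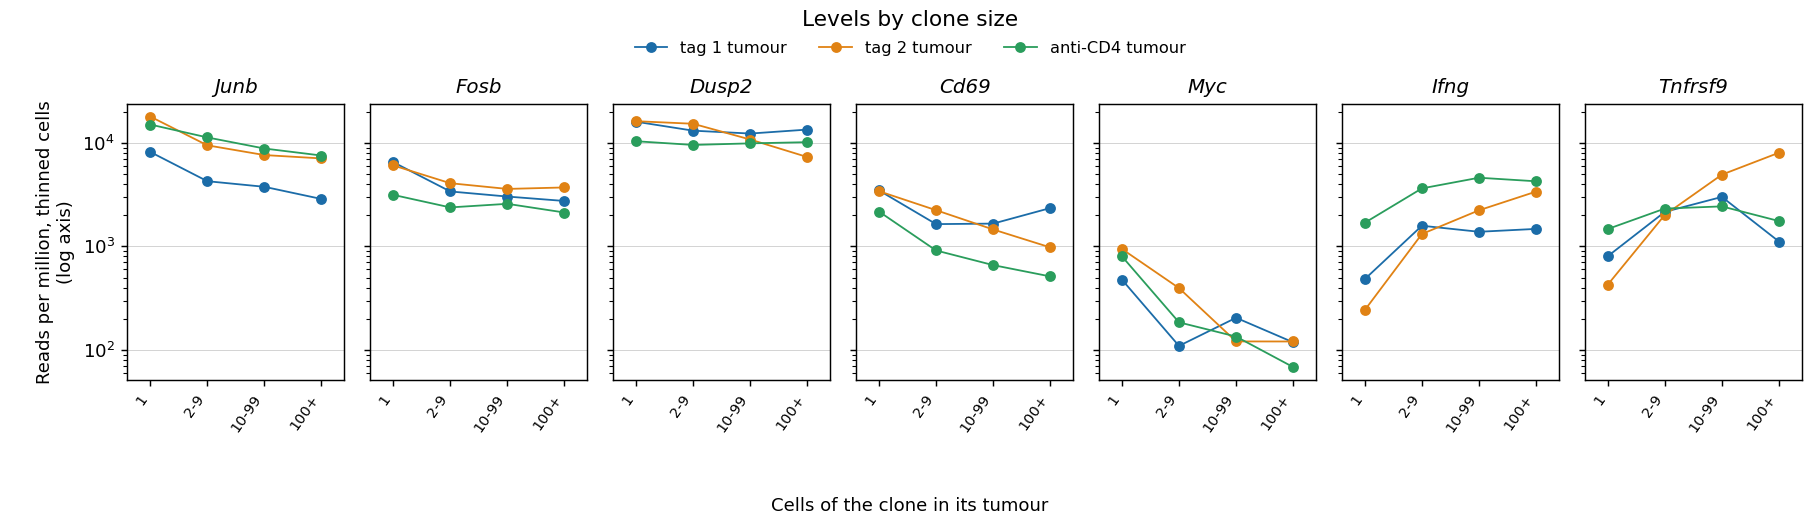
Mean level of each gene (y axis, RPM in thinned cells, log axis) in cells of clones of 1, 2 to 9, 10 to 99 and at least 100 cells (x axis) for the 3 tumours, with 1 mouse per line. Myc is at 478, 945 and 803 in single-cell clones and at 118, 120 and 68 in clones of at least 100 cells, and Ifng is higher in large clones.

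Clone size and state overlap, so clone size was also read within a gate. Among Tcf7+ Pdcd1- cells, Junb levels in single-cell and large clones were 8726 and 2845 RPM in tag 1, 18073 and 9495 in tag 2, and 17118 and 10019 in the anti-CD4 tumour. Myc levels there were 535 and 168, 958 and 251, and 1122 and 236. Both genes were lower in the large clones of this gate in all 3 tumours. Among Tcf7+ Pdcd1+ cells Myc was 354 and 244, 832 and 93, and 291 and 161, again lower in the large clones of each.

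The direction of many of these differences depended on the scale on which a level was read. Cells of large clones, of the Havcr2+ Pdcd1+ gate and with Ifng or Tnfrsf9 reads also gave more reads in all. In tag 2, for example, the median was 10606 reads in single-cell clones and 32839 in large ones, and 27566 in Tcf7+ Pdcd1+ cells and 43068 in Havcr2+ Pdcd1+ cells. As CPM, all 30 fitted differences of the 5 genes over 6 comparisons were below 0, and as reads per cell 19 of the 30 were above 0. The comparisons share cells, so these counts are not independent. The fit on reads per cell was chosen after seeing the data; it placed the median log2 difference of all genes between 0.44 and 0.86, against -0.13 to 0.16 as CPM, and called none of the 30. On either scale, a member's difference is to be read against that median.

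Junb gave 120.5 reads per cell in single-cell clones and 74.3 in large clones of tag 1, but 201.6 and 251.9 in tag 2 and 211.5 and 190.2 in the anti-CD4 tumour. Dusp2 gave more reads per cell in the large clones of each tumour, with 255.1 and 264.3, 209.7 and 282.2, and 144.6 and 228.2. Per cell, Junb thus had no common direction with clone size.

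Myc was lower in large clones on both scales. It gave 6.2 reads per cell in single-cell clones and 3.2 in large clones of tag 1, 10.6 and 3.5 in tag 2, and 10.5 and 2.2 in the anti-CD4 tumour. Cd69 was also lower per cell, with 50.3 and 40.8, 41.5 and 35.4, and 27.8 and 12.1. In Havcr2+ Pdcd1+ against Tcf7+ Pdcd1+ cells Cd69 gave 30.3 against 46.2 reads per cell in tag 1, 33.2 against 45.2 in tag 2 and 11.6 against 17.7 in the anti-CD4 mouse. That difference was -0.56 ± 0.09 as log2 reads per cell (edgeR adjusted p = 0.0711). Junb there was 130.1 against 145.1, 270.02 against 255.94 and 212.9 against 202.6, with no common direction.

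**Figure D4:**
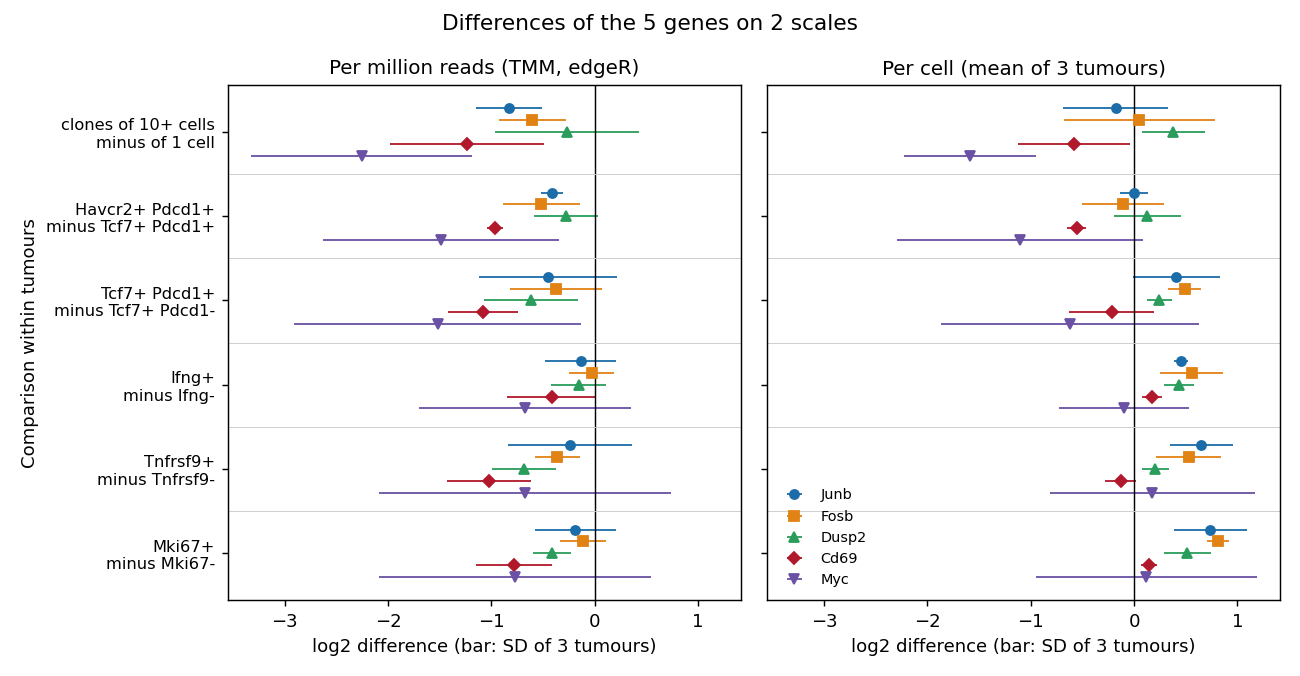
Log2 difference of the 5 genes (x axis) in 6 comparisons within tumours, left as CPM from edgeR and right as the mean log2 ratio of reads per cell. Bars are the SD of the 3 per-mouse differences. All 30 points lie below 0 on the left; on the right Myc and Cd69 stay below 0 for clone size and both state comparisons, and most points of Junb, Fosb and Dusp2 do not.

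Cells with an Ifng read were compared with cells without. Junb was read in 54.1% and 52.6% of such cells in tag 1, 84.5% and 83.8% in tag 2, and 90.5% and 87.1% in the anti-CD4 mouse. Fosb was read in 45.7% and 43.5%, 59.1% and 46.9%, and 50.7% and 43.1%. By share both AP-1 genes were slightly more frequent in Ifng+ cells of each tumour, most so Fosb in tag 2. The intervals overlapped for Junb in tags 1 and 2 and for Fosb in tag 1. Junb levels were lower in Ifng+ cells of each tumour, at 4365 and 4615, 8459 and 15448, and 8627 and 9018 RPM. Fosb levels were lower in tag 1 (3379 and 3946) and tag 2 (4391 and 5380). They were higher in the anti-CD4 tumour (2438 and 2202). Dusp2 was read in 94.8% and 93.2%, 93.7% and 89.8%, and 97.5% and 95.8%.

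By share, Cd69 went with Ifng in tag 1 (57.5% and 51.6%) and not in tag 2 (52.7% and 53.7%) or the anti-CD4 mouse (41.2% and 40.7%). Cd69 levels were lower in Ifng+ cells of each tumour, at 2232 and 2430, 1520 and 2914, and 635 and 836 RPM. Myc was less frequent in Ifng+ cells of tag 2, at 8.6% against 15.6%, and nearly equal in tag 1 (6.7% and 6.9%) and the anti-CD4 mouse (7.1% and 6.2%). edgeR called 1 of 1447 genes (0.0691%), which was Ifng itself, with 140 at an unadjusted p under 0.05 and 62 called by DESeq2. The members' log2 differences as CPM ran from -0.67 for Myc to -0.03 for Fosb, with edgeR adjusted p-values from 0.596 to 0.972.

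Within the Havcr2+ Pdcd1+ gate, where Ifng was most frequent, the pairing by share was clearer in 2 tumours. In tag 2, Ifng+ and Ifng- cells had Junb in 85.7% and 76.1%, Fosb in 59.8% and 49.1% and Cd69 in 46.1% and 32.9%. In the anti-CD4 mouse they had Junb in 91.0% and 86.2%, Fosb in 50.2% and 43.2%, Cd69 in 37.4% and 29.4% and Myc in 6.8% and 2.8%. In tag 1, with 86 Ifng+ cells in the gate, Cd69 ran the same way (43.0% and 35%) and Fosb the other (32.6% and 39.3%). The Ifng+ cells of the gate were also the deeper ones, with medians of 46452 against 36984 reads in tag 2 and 27618 against 22834 in the anti-CD4 mouse. The part of depth in these shares, beyond the thinning, was not tested.

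Cells with and without a Tnfrsf9 read differed more in Cd69 and Dusp2 levels. Cd69 levels were 1737 and 2604 RPM in tag 1, 1327 and 3206 in tag 2, and 513 and 886 in the anti-CD4 tumour. Dusp2 levels were 11183 and 14703, 8887 and 16019, and 8870 and 11050. Both genes were lower in the Tnfrsf9+ cells of each tumour. edgeR called 2 of 1534 genes (0.13%), Tnfrsf9 itself and Xcl1, which encodes a chemokine, and none of the members, with 147 at an unadjusted p under 0.05 and 51 called by DESeq2. Cd69 differed by -1.02 ± 0.40 and Dusp2 by -0.69 ± 0.31, each lower in 3 of 3 mice with an edgeR adjusted p of 0.385.

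As reads per cell the Tnfrsf9 difference of Cd69 was small, 42.5 and 42.5 in tag 1, 38.0 and 40.8 in tag 2 and 12.3 and 15.1 in the anti-CD4 mouse. Junb by contrast gave 144.3 and 72.1, 268.2 and 193.7, and 232.1 and 166.1 reads per cell, more in the Tnfrsf9+ cells of each tumour. Those cells were also deeper, with medians in tag 2 of 33905 against 11234 reads. On this scale the median log2 difference of all genes was 0.86, above the 0.65 of Junb. Thinned Junb levels were 4818 and 4483, 8306 and 16575, and 8649 and 8914 RPM in the same tumours, with no common direction. By share, Junb was read in 61.7% of Tnfrsf9+ and 50.01% of Tnfrsf9- cells of tag 1, in 83.8% and 84% in tag 2, and in 91.1% and 87.4% in the anti-CD4 mouse.

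Cycling cells, those with a read of the proliferation gene Mki67, were 387 in tag 1, 870 in tag 2 and 2609 in the anti-CD4 mouse. Myc was read in 8.0% of them against 6.8% of other cells in tag 1, 9.1% against 14.7% in tag 2 and 8.8% against 6.1% in the anti-CD4 mouse. Myc thus had no common direction with Mki67. edgeR called 5 of 1465 genes (0.341%), Mki67 itself and the cell cycle genes Pclaf, Top2a, Tyms and Ube2c, chosen here after their values were seen; without tag 2 no gene was called. No member was called, with 153 at an unadjusted p under 0.05 and 54 called by DESeq2, and the members' edgeR adjusted p-values ran from 0.342 to 0.880.

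The 5 genes were next compared cell by cell. Cells with reads of exactly 3 of them were 31.3% of tag 1, 35.5% of tag 2 and 38.8% of the anti-CD4 mouse. All 5 were read in 1.7%, 4.0% and 2.0% of cells, and in 4.8% of the Pmel-1 clone. No more than 1.2% of tumour cells and 2.2% of the clone had none.

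Spearman correlations over thinned cells were weak. They describe 6412, 11310 and 12304 cells that share a library and a fixed total, so a rise in an abundant gene lowers the others. Fosb and Cd69 were the closest pair, at 0.15, 0.19 and 0.15 in tag 1, tag 2 and the anti-CD4 mouse and 0.13 in the Pmel-1 clone. Of cells with Fosb, 59.2%, 61.6% and 47.3% had Cd69, against 47.7%, 45.7% and 35.3% of cells without.

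Junb and Fosb, the AP-1 subunits, correlated at 0.14, 0.10 and 0.14, and at 0.15 in the Pmel-1 clone. Fosb was read in 49.2%, 51.1% and 48.9% of Junb+ cells and in 38.0%, 39.2% and 35% of Junb- cells. The pair thus occurred together in cells of each tumour and of the spleen clone.

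Dusp2 and Cd69 correlated at 0.13, 0.16 and 0.06. The median over tumours was 0.074 for the 10 member pairs and 0.025 for 13203 pairs among 163 genes read in at least 10% of thinned cells of each tumour. Myc, read in 6.9% of tag 1 and 6.7% of anti-CD4 cells, was not among the 163, so its pairs lay outside that background. Of all pairs, 96.7% lay below Fosb with Cd69, 95.5% below Junb with Fosb and 94.7% below Dusp2 with Cd69. Dusp2 with Junb was at 0.060, above 78.7% of all pairs, and Dusp2 with Fosb (0.02) and with Myc (-0.002) lay near 0.

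With the effector genes the sign was the same in each tumour for some pairs and not for others. Ifng and Tnfrsf9 correlated with each other at 0.10, 0.43 and 0.15. Dusp2 was negative against Tnfrsf9 in each tumour (-0.14, -0.23 and -0.15), as was Cd69 (-0.06, -0.15 and -0.10). Junb against Tnfrsf9 was 0.11 in tag 1, -0.16 in tag 2 and 0.03 in the anti-CD4 mouse. Within Havcr2+ Pdcd1+ cells it was 0.24, 0.10 and 0.08, so the negative value of tag 2 was not seen inside that gate.

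**Figure D5:**
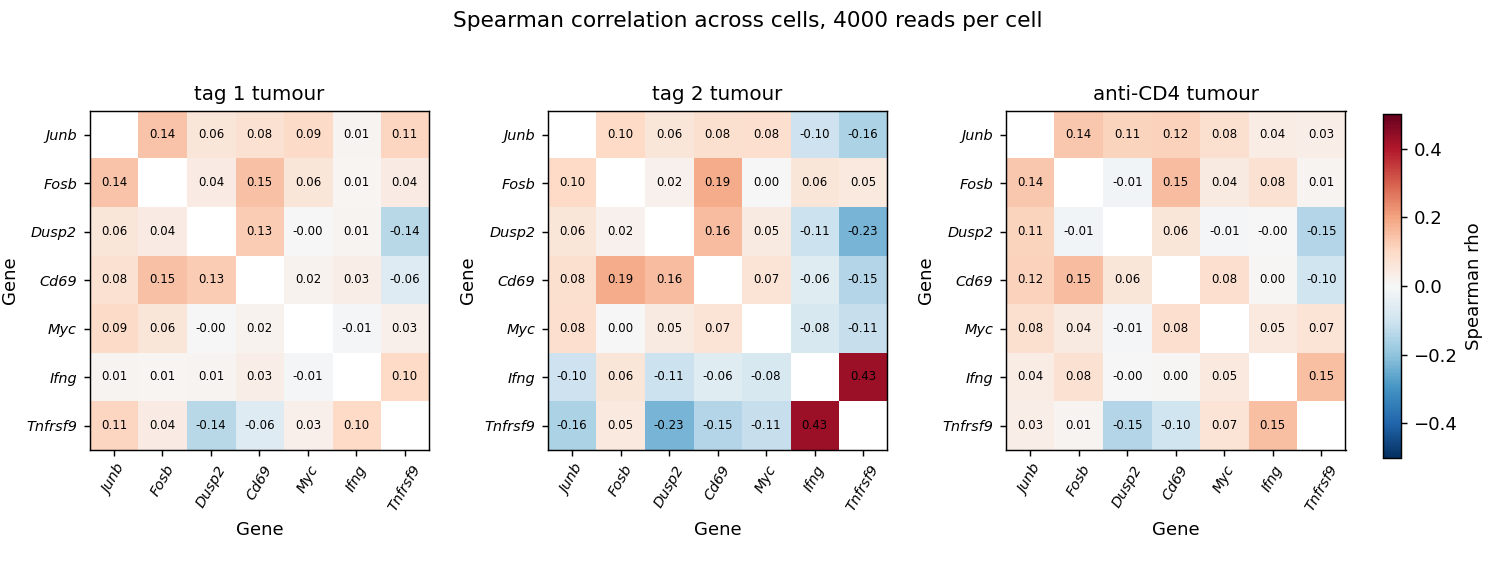
Spearman correlation across cells, each thinned to 4000 reads, of the 5 genes, Ifng and Tnfrsf9 in the 3 tumours (color scale from -0.5 to 0.5, values in the squares). The pairs of the 5 genes are weak and mostly positive, with Fosb and Cd69 at 0.15, 0.19 and 0.15, and Dusp2 is negative with Tnfrsf9 in each tumour.

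The genes most like each member were ranked by the median correlation over the 3 tumours, among the same 163 genes. Myc could therefore not be listed for another member. For Junb they were Ccr7, a lymph node homing receptor (0.21), Dusp1 (0.20), the chemokine gene Xcl1 (0.15), Btg1, an antiproliferative gene (0.15), and Fosb (0.14). For Fosb they were Dusp1 (0.17), Cd69 (0.15), Junb (0.14), Xcl1 (0.09) and the transcription factor gene Tbx21 (0.07). Dusp1 thus stood close to both AP-1 genes in each tumour, between 0.17 and 0.24.

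For Dusp2 the closest were Btg1 (0.15), the interferon gamma receptor gene Ifngr1 (0.14), Grip2 (0.13), the chemokine receptor gene Cxcr4 (0.13) and Cd69 (0.13). For Cd69 they were Fosb (0.15), Dusp2 (0.13), Btg1 (0.12), Tcf7 (0.11) and Dusp1 (0.10). For Myc they were Ccr7 (0.14), the cytokine receptor gene Il4ra (0.10), Junb (0.08), Xcl1 (0.08) and Il7r, the interleukin 7 receptor (0.07). Junb and Myc thus shared Ccr7, a gene of naive and memory cells, as their nearest. The lowest median correlation of Junb, Fosb and Myc was with Ccl5, an effector chemokine, at -0.22, -0.12 and -0.13. In tag 2, however, Xcl1 was negative with Junb (-0.09) and Myc (-0.07), and Ccl5 with Fosb was at -0.003.

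Single clones of the same tumour differed in Junb. Among the 23 clones of at least 20 cells in tag 1, the share of cells with Junb ran from 36.4% to 89.1% with a median of 52.4%. It ran from 56.2% to 93.3% over 36 clones of tag 2 and from 70.0% to 100% over 65 clones of the anti-CD4 mouse. In tag 1 the 2 largest clones, a TRBV12-1 clone of 1485 cells and a TRBV4 clone of 919, had Junb in 43.5% and 42.7% of cells. The fourth largest, a TRBV16 clone of 104 cells, had it in 73.1%, and the seventh, a TRBV13-1 clone of 55 cells, in 89.1%.

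Those 2 Junb-high clones of tag 1 also had Tnfrsf9 in 86.5% and 89.1% of cells and Pdcd1 in 76.9% and 83.6%, against 17.8% and 23.3% in the largest clone. They had Cd69 in 43.3% and 27.3%, below the 54.0% of the largest clone. The sixth largest, a TRBV1 clone of 57 cells, had Junb in 63.2% and Pdcd1 in 10.5%. Over the 23, 36 and 65 clones of the tumours, mean Junb and Tnfrsf9 levels had Spearman correlations of 0.42, 0.06 and 0.24. For Junb and Pdcd1 these were 0.62, -0.05 and 0.33. The 10 largest clones of tag 2, 3 of them TRBV19 and 2 TRBV5, had Junb in 76.1% to 93.3% of cells. Those of the anti-CD4 mouse, 4 of them TRBV19 and the largest a TRBV16 clone of 2132 cells, had it in 81.5% to 93.0%.

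The clone accounted for a small part of the variation between cells. Between-clone variance of log2 levels was 7.38%, 2.92% and 2.99% of the total for Junb in tag 1, tag 2 and the anti-CD4 mouse, and 7.83%, 6.93% and 7.65% for Dusp2. For Myc it was 1.2%, 1.3% and 2.19%, and for Tnfrsf9 41.8%, 28.5% and 15.8%. Across clones Dusp2 and Tnfrsf9 means were negatively correlated (Spearman -0.55, -0.72 and -0.69 over 23, 36 and 65 clones), and Dusp2 and Cd69 positively (0.31, 0.57 and 0.45). Clones of a tumour share its library, and these values are descriptions.

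The wider set of early receptor-response genes held 59 names, 44 of them in both matrices. Several classical members were barely read: Fos, Jund and Egr2 each had a read in at most 0.07% of the cells of any tumour and Nr4a1 in at most 0.17%. In Havcr2+ Pdcd1+ against Tcf7+ Pdcd1+ cells 33 were tested, and 4 rose and 2 fell, against 26 higher and 31 lower of all 875 genes (6.51% called). Those that rose were the chemokine gene Ccl3 (log2 difference 3.30), the transcription factor gene Irf8 (1.26), Tnfrsf9 and Ifng, and those that fell were Cd69 and Btg1 (-0.77). The median of the 33 was -0.21, against 0.03 for all genes.

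In large against single-cell clones none of 38 list genes passed, with a median of -0.19 against 0.16 for all genes. In Tcf7+ Pdcd1+ against Tcf7+ Pdcd1- cells none of 32 passed, with -0.18 against -0.13. Besides the genes that set the classes, only Xcl1 passed in the remaining comparisons, at 2.57 ± 0.24 in Tnfrsf9+ cells (edgeR adjusted p = 0.036), higher in 3 of 3 mice. In that comparison RLE scaling, reads per cell, tag 5 alone for the anti-CD4 mouse and leaving out tag 1 or tag 2 each gave 0 calls. The list medians there were 0.11 for Ifng, -0.15 for Tnfrsf9 and -0.06 for Mki67, against -0.05, -0.02 and -0.07 for all genes.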

How the data were processed

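Targeted single-cell sequencing gave, for each cell, the deposited counts of reads per panel gene, which the authors did not scale; nothing in the values shows that reads were collapsed to molecules. The authors also deposited estimated counts of reads for the leading receptor chain of each cell and the fraction of chain reads it holds. Bowtie2 2.4.2, cutadapt 3.2 and 3.4, R 3.6.3 and build GRCm38 are named per the submitters' processing notes, with no role given.

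Cells with a sample tag and a beta chain were used, 79.4% of tag 1, 81.7% of tag 2 and 90.3% of tag 5 and of tag 6 cells; cells that the authors marked as doublets (408 and 292) were left out, and no doublet caller was run. Cell numbers are counted per cartridge, and 397 occur in both. Pmel-1 beta chains under tags 5 and 6 were left out. Each cell was thinned to 4000 reads (seed 1).

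Raw counts were summed per mouse and class, at least 20 cells each, and tested with edgeR 4.0.16 in R 4.3.3 (TMM scaling, filterByExpr with a count minimum of 10, mouse block, Benjamini-Hochberg adjusted p under 0.05). The mouse pairs the sums, because both classes come from the same animal. DESeq2 1.42.0 was an alternative, beside other scalings, filters, weights and cell selections, and each mouse left out. The test was checked on simulated data. Shares, correlations and figures used Python 3.11.15 with numpy 2.4.6, scipy 1.17.1, pandas 2.3.3 and matplotlib 3.10.9.

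Values are given for the 5 members, Ifng and Tnfrsf9, for list genes that passed (at most 4 per direction), for the 5 genes closest to each member and for the 10 largest clones of a tumour. The members and lists were chosen with earlier results of these data known.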

Additional observations from a re-analysis of the deposited data

Results flagged for a closer look

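Of 30 member differences looked at, 7 had the opposite sign in the anti-CD4 mouse from that in both other mice, as log2 differences of CPM in summed raw reads. Dusp2 was at 0.27 in large against single-cell clones and at 0.076 in Havcr2+ Pdcd1+ against Tcf7+ Pdcd1+ cells. Fosb was at 0.21 in Ifng+ against Ifng- cells and at 0.078 in Mki67+ against Mki67- cells. Myc was at 0.032 with Ifng, 0.22 with Tnfrsf9 and 0.11 with Mki67. With 1 mouse per treatment these differences between mice were not tested.

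Cells of the tumours without a beta chain entered no comparison, and they also held the 5 genes. There were 1667 such cells under tag 1, 2530 under tag 2 and 1311 in the anti-CD4 mouse. Junb was read in 54.0%, 84% and 88.6% of them, Fosb in 44.6%, 45.3% and 51.4%, and Dusp2 in 91.8%, 87.0% and 92.1%. Cd69 was read in 51%, 51.4% and 38.7%, and Myc in 8.4%, 16.9% and 6.3%. The low Junb share of tag 1 was thus present in these cells too.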

How the results depend on the processing

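The edgeR counts of called genes were 0 for clone size, 57 for Havcr2+ Pdcd1+ against Tcf7+ Pdcd1+ cells, 1 for the Tcf7+ gates, 1 for Ifng, 2 for Tnfrsf9 and 5 for Mki67, and in that order they moved as follows. DESeq2 called 107, 162, 78, 62, 51 and 54. Sums of thinned counts gave 56, 99, 16, 5, 9 and 9. No filter gave 66 for clone size, 139 and 108 for the state comparisons and 13 for Mki67. RLE scaling gave 12 for clone size and 0 for Tnfrsf9. Large clones of at least 5 cells gave 12. Leaving out cells with reads of other cell types gave 34 for clone size and 8 for Mki67. Among Pdcd1+ cells, Ifng gave 2, Tnfrsf9 1 and Mki67 10. Leaving out each mouse in turn gave 0 to 114 for clone size, 0 to 14 for the Havcr2 comparison, 0 to 1 for the Tcf7+ gates, for Ifng and for Tnfrsf9, and 0 to 5 for Mki67. The 114 came without tag 1, and 0 for the Havcr2 comparison and for Mki67 came without tag 2. Without the replicate block, the Havcr2 comparison gave 5 and Tnfrsf9 and Mki67 1 each, while clone size gave 0 and the Tcf7+ gates and Ifng 1 each. This unpaired fit lost the Cd69 call, the only call of a member in the reported fits.

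Settings chosen after seeing the data were these. Testing only genes of at least 10 CPM gave 34, 106, 23, 25, 5 and 16 calls, and of at least 50 gave 49, 111, 37, 4, 14 and 15. Reads per cell gave 27 for clone size, 0 for Tnfrsf9 and 10 for Mki67. Tag 5 alone for the anti-CD4 mouse gave 41 for clone size and 0 for Tnfrsf9; tag 6 alone gave 61, 30 for the Havcr2 comparison, 2 for the Tcf7+ gates and 1 for Tnfrsf9. For the moves under edgeR and DESeq2 the cause was not tested.

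Of 480 recomputed member differences 39 reversed, 19 of them as reads per cell. On that scale Dusp2 was at 0.38 and Fosb at 0.053 for clone size, Dusp2 at 0.13 for the Havcr2 comparison, and Dusp2 at 0.25, Fosb at 0.49 and Junb at 0.41 for the Tcf7+ gates. For Ifng, Cd69 was at 0.17, Dusp2 at 0.43, Fosb at 0.56 and Junb at 0.46, and for Tnfrsf9, Dusp2 was at 0.21, Fosb at 0.53, Junb at 0.65 and Myc at 0.19. For Mki67, Cd69 was at 0.15, Dusp2 at 0.52, Fosb at 0.81, Junb at 0.74 and Myc at 0.14. Leaving out each mouse in turn, those that reversed, each without tag 2, were Dusp2 for clone size (-0.53 to 0.093) and for Ifng (-0.24 to 0.026), Fosb for Ifng (-0.072 to 0.088) and Mki67 (-0.15 to 0.015), Junb for Ifng (-0.24 to 0.093), Tnfrsf9 (-0.48 to 0.12) and Mki67 (-0.38 to 0.027), and Myc for Tnfrsf9 (-1.20 to 0.12). Among Pdcd1+ cells, Cd69 was at 0.038, Fosb at 0.19 and Junb at 0.16 for Ifng, Junb at 0.087 for Tnfrsf9, and Fosb at 0.039 and Junb at 0.017 for Mki67. Fosb for Ifng, at -0.03 in the reported fit, was at 0.0186 with RLE scaling and with DESeq2, at 0.0196 with no replicate block, at 0.016 with tag 5 alone, at 0.029 with tag 6 alone and at 0.046 with at least 3 reads as detection. Of the 480, 419 kept direction and side of the threshold and 17 gained a call. Only Cd69 in the Havcr2 comparison had a call to lose, and it lost that call in 5 of its recomputed fits. Of 40 shares recomputed without thinning or with at least 3 reads, 38 moved beyond their interval, and of 63 correlations 60 had the same sign with Pearson's r on unthinned log2 values. Depth limits the Myc shares: without thinning, 9.15%, 17.9% and 9.96% of cells of tag 1, tag 2 and the anti-CD4 mouse had a read, so most had none at either depth.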

Other observations

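Cells under spike-in tags 8 and 9 that did not carry the Pmel-1 beta chain numbered 23 and 32, and Myc was read in 26.1% and 6.2% of them. The cells that the authors marked as doublets had Junb in 82.4% of 408 cells in the cartridge of tags 1 and 2 and in 89.4% of 292 cells in the anti-CD4 cartridge. Myc was read in 11% and 7.9% of them.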
